A study of Mus musculus with 12 samples.

Results

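The genes described here are 9 p53 targets and cell cycle arrest genes, Cdkn1a, Cdkn1b, Mdm2, Gadd45a, Gadd45b, Gadd45g, Ccng1, Bax and Pmaip1. They were followed in material laser-captured as astrocytes from lumbar cord in SOD1 G93A mice, a model of amyotrophic lateral sclerosis. Every probe set was taken for which the platform annotation gives 1 of these symbols, which found 16 of the 45101 probe sets on the array and 8 of the 9 genes. Bax was not analysed here, since no probe set is named for it in the annotation used. A probe set is the group of short probes that together measure 1 transcript on an Affymetrix array. Of the 16 probe sets, 13 from 7 genes passed the filter on low values, which asked for an intensity above the array's median on at least 3 of the 12 arrays and kept 26153 probe sets in all.

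There were 4 groups of 3 male mice, each mouse giving 1 array. SOD1 G93A mice, which carry the mutant human SOD1 gene as the transgene Tg(SOD1 G93A)1Gur on a C57Bl/6 background, were taken at 90 days, called symptomatic, and at 120 days, called late-stage. Non-transgenic (NTg) littermates of the same ages were the controls. The labels give no treatment, and 1500 astrocytes were captured from each mouse. The study describes the captured RNA as mixed, with astrocytes a major part and microglial and neuronal markers still present. The transgene is not restricted to astrocytes, and 2 rounds of amplification preceded hybridisation. Which arrays were processed together is not given in the sources used here, so age cannot be told apart from when the tissue was collected or processed.

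p53 is a transcription factor that is stabilised by DNA damage and other stresses. Among its best-known targets is Cdkn1a, which encodes p21, an inhibitor of cyclin-dependent kinases that halts the cell cycle before DNA replication. Mdm2 encodes the ubiquitin ligase that degrades p53 and so closes a feedback loop, to which cyclin G1 (Ccng1) also contributes. Gadd45a, Gadd45b and Gadd45g encode small stress proteins that bind PCNA, CDK1 and the kinase MAP3K4; the Gadd45a gene is a p53 target, while Gadd45b and Gadd45g are better known for responses to cytokines and other stress signals. Cdkn1b encodes p27, a relative of p21 that is controlled mainly at the protein level. Bax and Pmaip1 (Noxa) act on the mitochondrial branch of apoptosis. Several of these genes, Cdkn1a and the Gadd45 genes among them, can also be induced without p53.

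The promoter sequences of the 4 genes that rose at 120 days are shown first, to show which known motifs lie close to their starts. They are RefSeq windows of the 250 bases before an annotated gene start (GRCm38.p6), written 5′ to 3′ on the strand of the gene, with motif matches in capitals. The motifs were the p53 core motif, of which a full response element holds a pair, the CCAAT box (CCAAT), the TATA box (TATAAA), the AP-1 motif TGANTCA, the cAMP response element TGACGTCA and the STAT motif TTCNNNGAA, each searched on both strands, and no matches overlapped. Cdkn1a has 2 annotated starts with a window each.
Cdkn1a, upstream start, chr17:29090729-29090978 (+): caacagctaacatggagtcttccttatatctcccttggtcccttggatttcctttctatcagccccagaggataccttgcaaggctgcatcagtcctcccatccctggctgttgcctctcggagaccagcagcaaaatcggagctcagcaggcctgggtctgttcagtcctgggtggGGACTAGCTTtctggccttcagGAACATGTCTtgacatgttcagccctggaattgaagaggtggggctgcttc
Cdkn1a, downstream start, chr17:29093519-29093768 (+): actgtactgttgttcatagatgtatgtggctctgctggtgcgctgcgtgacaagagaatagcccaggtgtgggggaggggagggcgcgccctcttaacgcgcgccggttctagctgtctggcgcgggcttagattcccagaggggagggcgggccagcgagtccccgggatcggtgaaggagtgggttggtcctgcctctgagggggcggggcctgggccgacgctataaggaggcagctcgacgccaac
Gadd45a, chr6:67037408-67037657 (-): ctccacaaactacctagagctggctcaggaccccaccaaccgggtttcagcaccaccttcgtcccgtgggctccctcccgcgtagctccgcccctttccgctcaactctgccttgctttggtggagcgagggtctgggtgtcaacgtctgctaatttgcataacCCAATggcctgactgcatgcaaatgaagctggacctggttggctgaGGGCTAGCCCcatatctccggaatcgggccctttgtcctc
Gadd45b, chr10:80929841-80930090 (+): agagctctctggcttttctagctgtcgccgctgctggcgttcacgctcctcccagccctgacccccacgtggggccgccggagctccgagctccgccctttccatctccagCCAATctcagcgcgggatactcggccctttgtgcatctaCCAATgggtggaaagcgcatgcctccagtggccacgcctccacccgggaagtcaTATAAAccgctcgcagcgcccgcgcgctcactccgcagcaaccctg
Gadd45g, chr13:51846425-51846674 (+): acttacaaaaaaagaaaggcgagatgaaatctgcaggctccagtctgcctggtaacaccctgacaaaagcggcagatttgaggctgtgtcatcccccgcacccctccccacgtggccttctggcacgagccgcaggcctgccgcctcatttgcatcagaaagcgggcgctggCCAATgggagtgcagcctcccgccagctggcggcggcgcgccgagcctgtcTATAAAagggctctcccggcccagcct

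The upstream Cdkn1a window held 2 matches of the p53 core motif, beginning 73 and 51 bases before the start, and the downstream window none. Of all 32851 windows of this length, 7.13% held at least 1 match and 0.259% held 2 or more. Gadd45a had 1 match 40 bases before its start, where its best-known p53 site, in the third intron, lies outside the window. Gadd45b and Gadd45g had none. Their windows held CCAAT, present in 33.8% of all windows, and TATAAA, present in 12.4%. CCAAT also matched in the windows of Gadd45a, 86 bases before the start, Ccng1, Mdm2 and Cdkn1b, while TATAAA matched in no other of the 7 tested members. CCAAT began 139 and 100 bases and TATAAA 46 bases before the Gadd45b start. In Gadd45g they began at 78 and 27 bases. Among the other members, Ccng1 and Mdm2 had 1 p53 core match each, and Cdkn1b had none. The AP-1, cAMP response and STAT motifs, found in 6.75%, 1.55% and 7.02% of windows, matched in none of the windows of these 7 genes. Windows of Bax and Pmaip1 were not searched. A match is a description of the letters and not of binding.

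The array of the late-stage SOD1 G93A mouse 3 stood apart before any gene was considered. Its mean correlation with its own group was 0.8475, against 0.885 to 0.955 for the other 11 arrays, and its median intensity was 55.2 against 24.8 to 43.0. The members that rose and the list genes that fell at 120 days are therefore also given without it. Each gene below is described by its intensity as deposited and by its difference in log2(intensity + 7) after quantile normalization within the time-point, with its standard error (SE) from limma. The adjusted p is limma's, with Benjamini-Hochberg adjustment over all 26153 probe sets tested, and a gene is said to have risen or fallen where it was under 0.05. Fold changes on this scale understate those of dim genes, and 3 mice a group limit the precision.

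At late-stage disease 4 of the 9 genes, Cdkn1a, Gadd45a, Gadd45b and Gadd45g, rose in SOD1 G93A against NTg samples. None was lower even at an unadjusted p under 0.05. These were 5 of the 13 tested probe sets, where 3.6% of all tested probe sets rose and 3.82% fell at this stage. Cdkn1b, Mdm2 and Ccng1 did not pass the test. In 8 of the 13 probe sets all SOD1 G93A arrays lay above all NTg arrays, against 14% of all tested probe sets. In captured bulk material, fewer cells of a type and less RNA per cell cannot be told apart.

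**Figure D1:**
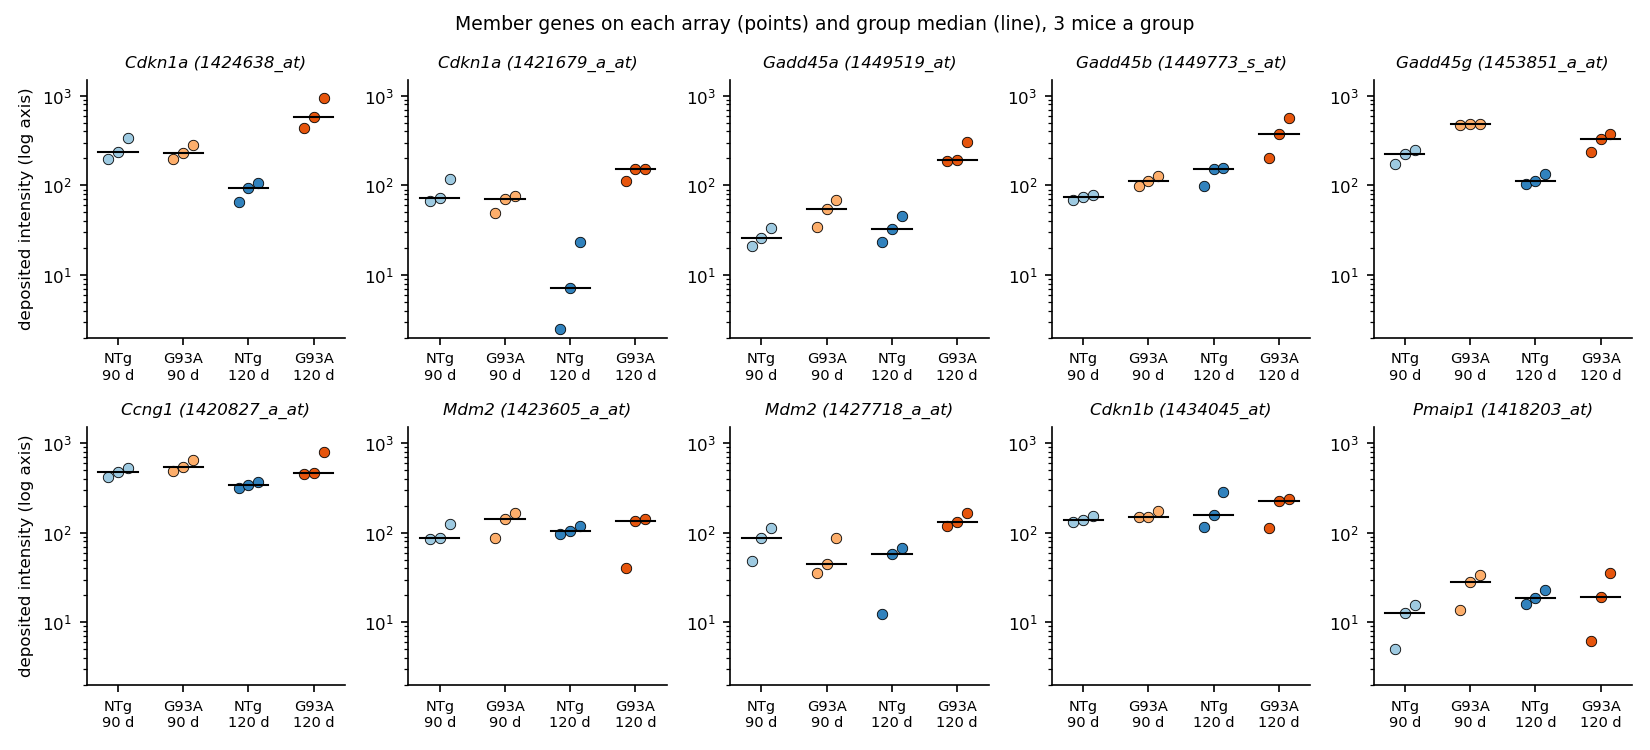
MAS5 intensity (log axis) of 10 probe sets of the p53 target and arrest genes in the 4 groups, with 1 point per mouse and a line at the group median. Cdkn1a was lowest in NTg at 120 days and highest in SOD1 G93A at 120 days, Gadd45a was raised at 120 days, and Gadd45g was higher in SOD1 G93A at both ages.

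Cdkn1a, the p21 gene, showed the largest difference of any member. On probe set 1424638_at the late-stage NTg mice read 65.8, 107.8 and 94.7 and the SOD1 G93A mice 581.2, 955 and 431.7. The lowest SOD1 G93A array was thus well above the highest NTg array. The difference was 2.78 on the log2 scale (SE 0.31, 95% interval 2.10 to 3.46), or 6.87-fold, with an adjusted p of 0.000374. The other Cdkn1a probe set, 1421679_a_at, read 2.5, 7.2 and 23.4 in NTg and 112.7, 151 and 152.9 in the SOD1 G93A mice, again without overlap. Its difference was 2.96 (SE 0.39, adjusted p = 0.000942). The NTg values of this probe set lay near the offset of 7, so the size of its change depended on that setting, at 1.87 with an offset of 34 and 3.65 with an offset of 1. Without SOD1 G93A mouse 3 the differences were 3.04 and 2.97.

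The Gadd45 family rose together at late-stage disease, with Gadd45a changing most. Gadd45a, on its only probe set, 1449519_at, read 32.6, 45.4 and 23.2 in NTg and 190.3, 304 and 185.7 in the SOD1 G93A mice, a difference of 2.39 (SE 0.33) or 5.25-fold with an adjusted p of 0.00134. No array overlapped between the groups. Gadd45g (1453851_a_at) read 105, 133.4 and 113.2 in NTg and 235.2, 329.6 and 371 in the SOD1 G93A mice, also without overlap. Its difference was 1.42 (SE 0.27), or 2.67-fold, with an adjusted p of 0.00853. Gadd45b (1449773_s_at) read 157.5, 98.1 and 150.8 in NTg and 565.4, 377.9 and 201.5 in the SOD1 G93A mice, where mouse 3 came closest to the controls. The difference of 1.38 (SE 0.32), or 2.60-fold, had an adjusted p of 0.0214. A probe set ending in _s_at or _x_at can share sequence with other transcripts. This also touches Ccnd2, Mcl1, Rrm2 and Ccn1 below, and several cell type markers, Gfap, Trem2 and Mbp among them.

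Gadd45b was the least secure of the 4. Its adjusted p was 0.05003 without SOD1 G93A mouse 1, 0.115 without NTg mouse 2, 0.0646 without NTg mouse 3, 0.0809 with each time-point fitted alone and 0.097 with median centring of the arrays. Without SOD1 G93A mouse 3 the difference was 1.80 (adjusted p = 0.00392). The other tested Gadd45b probe set, 1450971_at, read 85.8, 152.6 and 91.7 in NTg and 474.4, 280.1 and 210.2 in the SOD1 G93A mice, with no overlap, but its difference of 1.48 (SE 0.51) did not pass (adjusted p = 0.0897). A further one, 1420197_at, read 12.8 to 41.7 over the 12 arrays and was not tested. Without SOD1 G93A mouse 3, Gadd45a differed by 2.61 and Gadd45g by 1.26, with adjusted p of 0.00241 and 0.0210.

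The feedback genes of the p53 loop were less clear. Mdm2 was read by a pair of tested probe sets that differed in sign. On 1427718_a_at the late-stage NTg mice read 67.5, 12.4 and 57.8 and the SOD1 G93A mice 164.1, 117.7 and 133. The groups did not overlap, and the difference of 1.45 (SE 0.42) had an adjusted p of 0.0541. On 1423605_a_at the values were 119.5, 97.7 and 105.4 in NTg and 133.5, 142.5 and 40.8 in the SOD1 G93A mice, so that 2 SOD1 G93A mice were above and mouse 3 was below all controls. The difference was -0.40 (95% interval -1.40 to 0.60), and 0.32 without mouse 3. The probe set 1427718_a_at passed under 6 of 23 alternative settings, where its adjusted p ranged from 0.0255 to 0.241. The remaining Mdm2 probe set, 1457929_at, read 8.6 to 54.6 and was not tested.

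Ccng1 (1420827_a_at) read 343.3, 315.8 and 366.9 in late-stage NTg and 451.5, 798 and 466 in the SOD1 G93A mice. All SOD1 G93A arrays were higher, by 0.87 on the log2 scale (SE 0.26), with an adjusted p of 0.0566 that ranged from 0.0262 to 0.545 over 23 alternatives and passed in 6. The other Ccng1 probe sets differed by 0.63 and 0.12, with overlapping groups. Cdkn1b, the p27 gene, overlapped on both of its probe sets. On 1434045_at the NTg mice read 288, 115.3 and 157.3 and the SOD1 G93A mice 237.1, 224.1 and 111.9. The difference was 0.02 with a 95% interval of -0.74 to 0.77 and was -0.33 with median centring. On 1419497_at it was 0.35 (-1.05 to 1.75). Pmaip1, the Noxa gene, read 5.1 to 35.1 over the arrays and was not tested. Its late-stage values were 18.5, 16.1 and 22.9 in NTg and 19.1, 35.1 and 6.2 in the SOD1 G93A mice, in no consistent order.

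**Figure D2:**
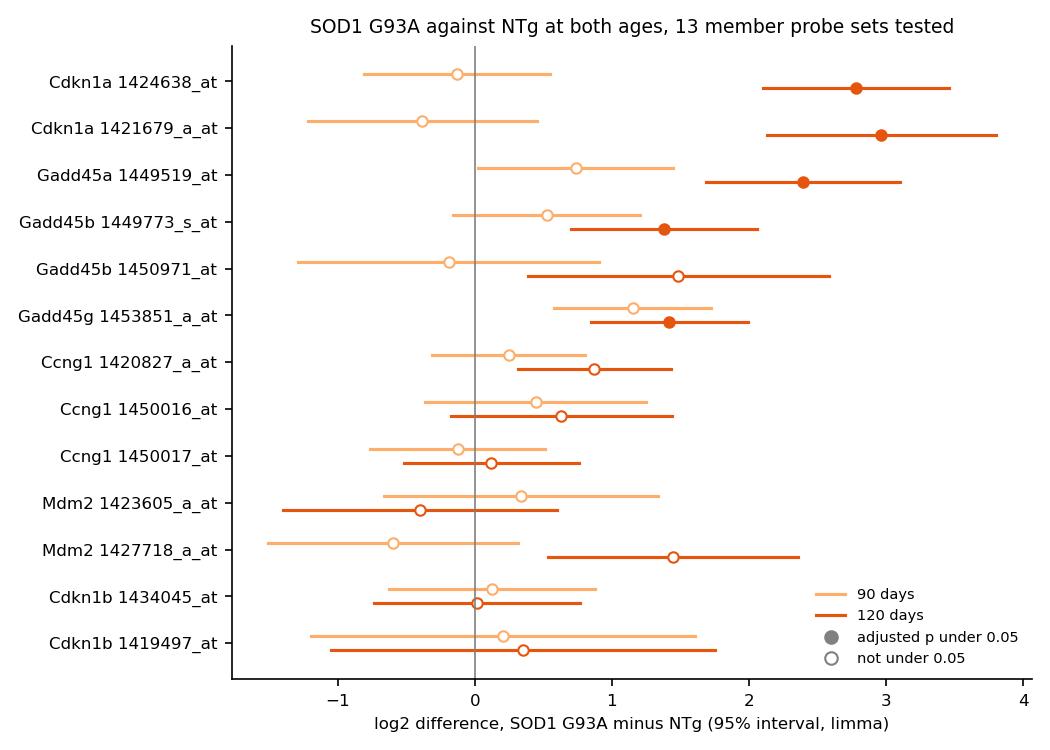
Difference SOD1 G93A minus NTg in log2(intensity + 7) with its 95% interval for the 13 tested probe sets at 90 and 120 days. Filled points had an adjusted p under 0.05, which held for 5 probe sets at 120 days and none at 90 days.

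At the symptomatic stage none of the 13 probe sets passed, where 0.138% of all tested probe sets (36) passed in either direction and 1464 had an unadjusted p under 0.05. Of the 13, Gadd45g and Gadd45a had an unadjusted p under 0.05, and Gadd45g came closest. NTg mice of 90 days read 226.7, 171.6 and 246.7 and SOD1 G93A mice 488.3, 490 and 472.1, so that all were higher. The difference of 1.15 (SE 0.27, 95% interval 0.58 to 1.73) had an unadjusted limma p of 0.00078 and an adjusted p of 0.196. With array weights, which give less weight to noisier arrays, its adjusted p was 0.0298. Gadd45b 1449773_s_at read 73.8, 69.2 and 77.5 in NTg and 127.6, 97.8 and 111.6 in the SOD1 G93A mice, higher on all arrays by 0.53 (SE 0.32). These were the 2 probe sets of the 13 without overlap, both higher, against 5.74% of all tested probe sets. Gadd45a read 33.7, 25.6 and 21.3 in NTg and 34.2, 54.7 and 68.8 in the SOD1 G93A mice, higher by 0.73 (SE 0.33, adjusted p = 0.870).

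For Cdkn1a the genotypes overlapped at 90 days. On 1424638_at the NTg mice read 336.3, 199 and 234.8 and the SOD1 G93A mice 229.1, 283.2 and 195.4. The difference was -0.13 (95% interval -0.81 to 0.55), and that of 1421679_a_at was -0.38 (-1.22 to 0.45). The remaining members differed by -0.60 to 0.44, Mdm2, Ccng1, Cdkn1b and the other Gadd45b probe set included, and all of them overlapped.

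Whether the SOD1 G93A effect itself changed between the stages was tested as a difference of the 2 differences. No probe set of the 26153 passed (0%), while 2414 had an unadjusted p under 0.05. For Cdkn1a the effect was larger at 120 days by 2.91 (SE 0.45, adjusted p = 0.192) and 3.35 (SE 0.55, adjusted p = 0.192). Over 22 alternatives the adjusted p ranged from 0.0249 to 0.392 and from 0.0298 to 0.539, and passed under 2, an offset of 34 and a trended, robust variance prior. Gadd45a was larger by 1.66 (adjusted p = 0.384), Mdm2 1427718_a_at by 2.04 (adjusted p = 0.397) and Gadd45b 1450971_at by 1.68 (adjusted p = 0.520). For Gadd45g the 2 stages differed by 0.27, with an interval of -0.54 to 1.08.

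Between the ages Cdkn1a fell in NTg and, on 1 of its probe sets, rose in SOD1 G93A mice. In NTg mice Cdkn1a 1424638_at fell by 1.45 on the log2 scale from 90 to 120 days (SE 0.32, adjusted p = 0.0294) and 1421679_a_at fell by 2.56 (SE 0.37, adjusted p = 0.00486), where 2.45% of probe sets fell. In SOD1 G93A mice 1424638_at rose by 1.60 (SE 0.32, adjusted p = 0.0128), where 3.07% of probe sets rose, and 1421679_a_at differed by 0.93 (adjusted p = 0.137). On both probe sets every late-stage array lay below every 90-day array in NTg and above it in SOD1 G93A mice. The groups thus ordered as NTg at 120 days, the 2 groups of 90 days without a difference beyond their spread, and SOD1 G93A at 120 days. The age difference of 1424638_at in NTg passed in 9 of 16 alternatives. It failed without any 1 of the 6 NTg arrays and without the filter, with an adjusted p of up to 0.118. In SOD1 G93A mice that probe set failed with median centring, at 0.85 (adjusted p = 0.115).

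Gadd45a and Gadd45b differed with age in SOD1 G93A mice. Gadd45a rose by 1.97 (SE 0.33, adjusted p = 0.00676), against a difference of 0.02 in NTg. Gadd45b rose by 1.67 and 2.26 on its tested probe sets (adjusted p = 0.0113 and 0.0181), where 1449773_s_at also differed by 0.70 in NTg (adjusted p = 0.246). For these calls the adjusted p was 0.0607 with median centring for 1449773_s_at, 0.0514 without SOD1 G93A mouse 2 of 90 days, and 0.0610 and 0.0680 for 1450971_at without mouse 1 or mouse 2 of 90 days. Gadd45g differed by -0.84 in NTg (adjusted p = 0.105) and by -0.44 in the SOD1 G93A mice (adjusted p = 0.320).

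Some markers of other cell types also differed between the genotypes, at 90 days as well as at 120 days. All 13 tested microglia and macrophage markers were higher in SOD1 G93A at both ages, and 11 rose at 120 days and 4 at 90 days. The summed intensity of the 14 markers named was 2720 to 3090 in NTg and 16327 to 18180 in the SOD1 G93A mice at 120 days, and 4452 to 7817 and 11508 to 16929 at 90 days. No group mean of a marker was at 0, and Itgam did not pass the filter. Trem2 and P2ry12 passed it only through SOD1 G93A arrays. Of 5 tested leukocyte markers 5 were higher at 120 days and 4 rose, and at 90 days 4 were higher and 2 rose. The late-stage sums of the 8 named were 249 to 313 in NTg and 1249 to 1558 in the SOD1 G93A mice. Of 12 neuron markers 1 was higher at 120 days and 5 fell, with sums of 21593 to 28245 in NTg and 9671 to 15611 in the SOD1 G93A mice. At 90 days 1 was higher and none fell, with sums of 26172 to 31239 and 19706 to 23786.

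Astrocyte markers were present throughout. The summed intensity of 13 was 31959 to 38500 (NTg) and 36811 to 43322 (SOD1 G93A) at 90 days, and 20070 to 24113 and 20464 to 33701 at 120 days. At 120 days 7 of the 13 were higher in SOD1 G93A, with a median difference of 0.10. Gfap, Aldh1l1 and Sox9 passed, by 4.80, 1.23 and 1.53. S100b, Gjb6, Fgfr3, Aldoc, Atp1b2 and Glul lay on the other side of 0 without passing, by -0.58, -0.80, -0.56, -0.36, -0.18 and -0.06. S100b was lower on all SOD1 G93A arrays at both ages. Gfap also differed with age in NTg mice, from 2508.2, 784.6 and 3302.8 at 90 days to 109.2, 231.4 and 102.3 at 120 days, in the same direction as Cdkn1a. Of 8 oligodendrocyte markers 6 were higher at late-stage disease, and 1 of them rose. Their late-stage sums did not overlap, at 23532 to 30112 (NTg) and 37361 to 49668 (SOD1 G93A). After normalization the mean log2 values of this list overlapped. The symptomatic sums overlapped, at 29897 to 54542 (NTg) and 35382 to 61647 (SOD1 G93A). Mbp, the brightest, had late-stage mean intensities of 12715 (NTg) and 22115 (SOD1 G93A), and differed by 0 after normalization at both ages. Quantile normalization gives 1 value to a probe set that keeps its rank on every array, so this 0 cannot show whether Mbp differed. No marker of oligodendrocyte precursors, endothelial cells and pericytes or fibroblasts passed. The summed intensity of 5 fibroblast markers was 3728 in late-stage SOD1 G93A mouse 3, the array that stood apart, against 498 and 436 in mice 1 and 2 and 287 to 523 in NTg. Col1a1, a collagen gene, read 1018.8 there against 43.3 and 46.4. The part of these markers in the differences of Cdkn1a and the Gadd45 genes was not tested.

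**Figure D3:**
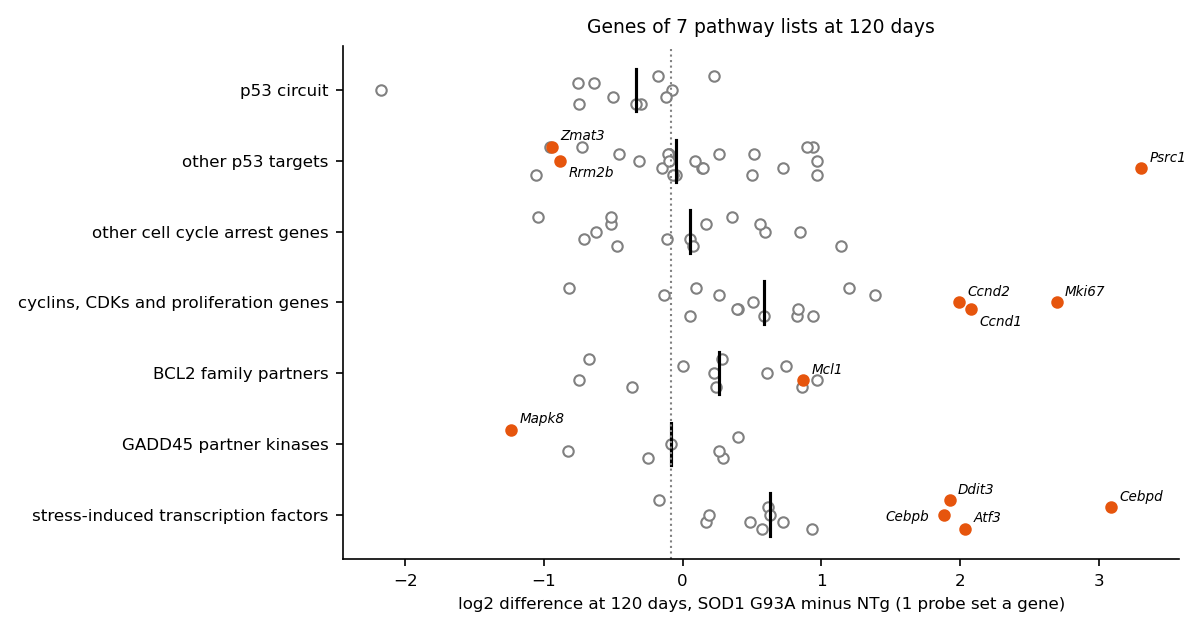
Log2 difference SOD1 G93A minus NTg at 120 days for the tested genes of 7 pathway lists, 1 probe set a gene. Filled, named points had an adjusted p under 0.05, black bars are list medians and the dotted line is the median of all genes, -0.08. Of the 12 called genes, 4 are stress-induced transcription factors, 3 are cyclin and proliferation genes and 3 are other p53 targets.

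Other genes of the p53 pathway are set beside all genes of the array. With 1 probe set a gene, the brightest, 4.12% of all 12445 genes rose and 4.44% fell at 120 days, and 0.225% passed at 90 days. Of 14 named genes of the p53 circuit itself (its kinases, partners and relatives), 11 were tested and none passed, 3 having an unadjusted p under 0.05, with a median difference of -0.34 at 120 days against -0.08 over all genes, and 1 of 11 was higher. Ppm1d, the phosphatase that switches off the p53 response, read 84.1, 47.9 and 38.9 in NTg and 5.4, 30.1 and 2.0 in the SOD1 G93A mice at 120 days. All SOD1 G93A values were below the controls, and the difference of -2.17 had an adjusted p of 0.0553. With 2 of these values below the offset, it ranged from -3.12 to -1.12 over 22 alternatives and passed in 7. Trp53bp1, a DNA break adaptor, and the kinase Chek2 differed by -0.64 and -0.76 without passing (adjusted p = 0.0836 and 0.152). Trp53 was not analysed here.

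Of 25 tested p53 targets other than the members, 1 rose and 2 fell at late-stage disease, with a median of -0.05. Psrc1, a spindle protein gene, read 3.1, 3.2 and 3.9 in NTg, all below the offset, and 68.9, 146.1 and 128.3 in the SOD1 G93A mice (3.30 on the log2 scale, adjusted p = 0.00178). Its size depended on the offset and ranged from 1.88 to 4.31 over 22 alternatives. Psrc1 passed the filter on low values only through SOD1 G93A arrays. Zmat3, an RNA-binding p53 target, went from 1007.4, 1243.9 and 913.4 to 524.3, 640.1 and 331.4, and so fell by 0.94 on the log2 scale (adjusted p = 0.0377). Rrm2b, the p53-induced ribonucleotide reductase subunit, went from 405.5, 362 and 370.2 to 189.7, 240.8 and 147.5 and fell by 0.88 (adjusted p = 0.0469). Those falls were lost in 11 and 14 of 23 alternatives. Without SOD1 G93A mouse 3 the differences were -0.73 for Zmat3 and -0.72 for Rrm2b (adjusted p = 0.106 and 0.117). Sesn2, a sestrin, differed by 0.90 and the apoptosis gene Bbc3 (Puma) by 0.97, both higher on all arrays and neither past the test (adjusted p = 0.0536 and 0.0750). Of the 25 tested targets, 12 were higher at 120 days. In the late-stage arrays in which Cdkn1a was higher, Psrc1 was thus also higher, while Zmat3 and Rrm2b were lower.

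None of 15 other arrest genes passed the test, and 3 had an unadjusted p under 0.05. Of the 15, 8 were higher at 120 days, with a median of 0.05. Btg1, an antiproliferative gene, differed by 1.14 (adjusted p = 0.0716), where mouse 3 alone read 1295.5 and the other SOD1 G93A mice 487.7 and 446.9. Ccng2, the cyclin G relative of Ccng1, and Gas1, a growth arrest gene, differed by -0.71 and -1.04 (adjusted p = 0.103 and 0.117). Of 17 tested cyclin and proliferation genes, 15 were higher with a median of 0.59, and 3 rose. Mki67 and Rrm2 passed the filter on low values only through SOD1 G93A arrays, while Cdk1, Ccnb2, Aurkb and Bub1 were among those failing it. The count and median of this list are thus partly set by the filter. Ccnd1, the gene of cyclin D1, which p21 binds together with its kinase, rose from 230.5, 223.9 and 221.4 to 796.2, 964.1 and 938.1, by 2.08 (SE 0.25, adjusted p = 0.000555). Ccnd2 rose by 2.00 (adjusted p = 0.0334). Mki67, the gene of the proliferation antigen Ki-67, rose from 15.7, 1.9 and 4.1 to 33.1, 90.8 and 196.4, by 2.70 (adjusted p = 0.0102), with 2 NTg values below the offset and a range of 1.58 to 3.48 over 22 alternatives.

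Those proliferation genes varied in how they held. The Ccnd1 call held in all 23 alternatives, while Ccnd2 lost it in 7 and Mki67 in 2 of 22. For Ccnd2 this included leaving out SOD1 G93A mouse 2 or mouse 3 or any NTg mouse of 120 days (adjusted p = 0.0595 to 0.154), and for Mki67 leaving out NTg mouse 2 (adjusted p = 0.0610). Rrm2, a replication enzyme subunit, differed by 1.20 (adjusted p = 0.0965). Cdkn1a, an inhibitor of the cell cycle, and Ccnd1, a driver of its start, were therefore both higher in the same late-stage arrays.

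Among the apoptosis partners of Bax and Pmaip1, 9 of 12 tested were higher at 120 days with a median of 0.26, and 1 rose. This was Mcl1, the anti-apoptotic protein that Noxa binds, which read 1180.8 to 1301.9 in NTg and 1614.3 to 2722.3 in the SOD1 G93A mice (0.87, adjusted p = 0.0406) and was lost in 13 of 23 alternatives. Bcl2l1, the gene of Bcl-xL, differed by 0.74 and Bid by -0.75 without passing (adjusted p = 0.0913 and 0.133). Of 7 tested partners of the GADD45 proteins 3 were higher, with a median of -0.08, and 1 fell. Mapk8, the gene of the stress kinase JNK1, fell by 1.23 (adjusted p = 0.0494, lost in 15 of 23 alternatives). Without SOD1 G93A mouse 3 Mapk8 differed by -0.79 (adjusted p = 0.105). Its activator Map2k4 differed by -0.83 (adjusted p = 0.0571), with all SOD1 G93A values below the controls.

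Stress-induced transcription factors known to act on the member genes held 4 calls at late-stage disease. The list was chosen with earlier results of these data known, and the study itself reports Atf3 as raised. The count is therefore a description only. Of 13 tested, 12 were higher at 120 days with a median of 0.63, and the 4 that rose each held the call in all 23 alternatives. Cebpd, an acute-phase factor, rose from 71.1, 79.6 and 94.3 to 1002.6, 1202.2 and 335.8, by 3.09 (adjusted p = 0.000444). Atf3, an early stress factor of the CREB family, rose from 25.4, 25.1 and 22.8 to 131, 166 and 136.4, by 2.04 (adjusted p = 0.00117). It passed the filter on low values only through SOD1 G93A arrays. Ddit3 (CHOP), a marker of endoplasmic reticulum stress, and Cebpb rose by 1.93 and 1.89 (adjusted p = 0.00293 and 0.00306).

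Atf3 was the only gene of the 7 lists to pass at 90 days. It read 24.3, 23.9 and 12.7 in NTg and 106.7, 120.4 and 110.6 in the SOD1 G93A mice, higher by 2.14 (adjusted p = 0.00585), and fitting each time-point alone gave an adjusted p of 0.0644. Cebpd read 60.5 to 62.6 in NTg and 162.3 to 251.6 in the SOD1 G93A mice at 90 days, without passing (1.53, adjusted p = 0.198). The lists' medians at 90 days were 0.43 for the stress factors, 0.31 for the apoptosis partners, 0.25 for the proliferation genes and -0.09 to 0.06 for the other 4, against 0.02 over all genes. Ddit3, Egr1, Rrm2, Bbc3 and Mcl1 differed by 0.90, 0.96, 0.97, 0.75 and 0.56 there, with adjusted p of 0.574 to 0.850.

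**Figure D4:**
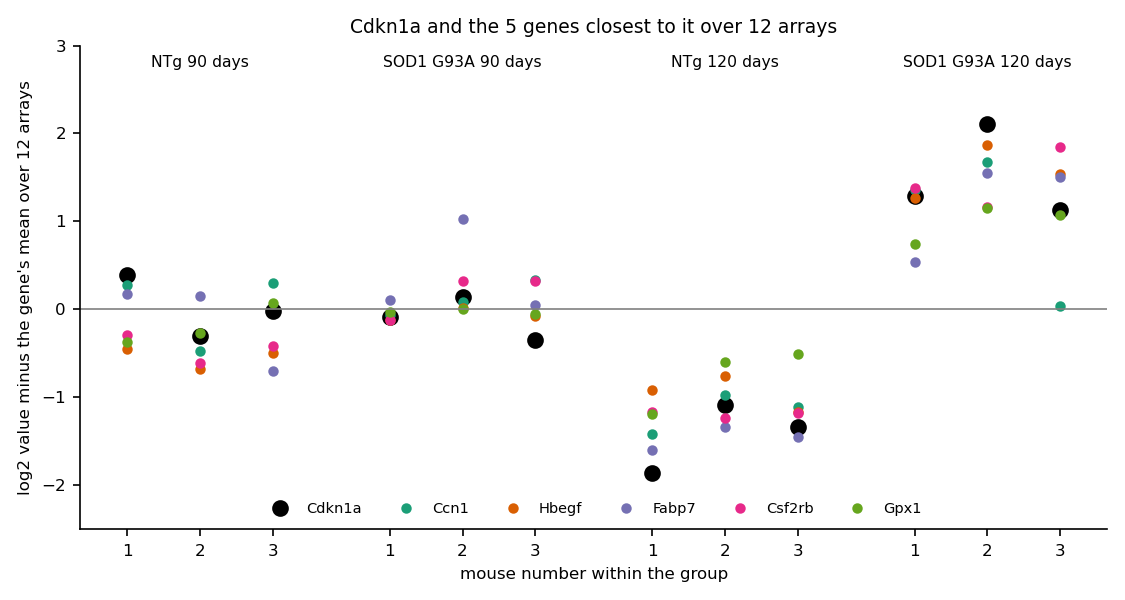
Log2 values of Cdkn1a and of the 5 genes whose pattern over the 12 arrays was most like it, each centred on its own mean, by mouse and group. The group means of all 6 genes were lowest in NTg at 120 days and highest in SOD1 G93A at 120 days.

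The genes whose pattern over the 12 arrays was most like that of Cdkn1a (1424638_at) were found among 12445 genes by the smallest root-mean-square difference of centred log2 values. They were Ccn1 at 0.43, a matricellular protein gene also known as Cyr61, Hbegf at 0.45, an EGF receptor ligand, Fabp7 at 0.49, a fatty acid binding protein of astrocytes and radial glia, Csf2rb at 0.51, a cytokine receptor subunit of myeloid cells, and Gpx1 at 0.52, a glutathione peroxidase. Their late-stage differences were 1.99 for Ccn1, 2.38 for Hbegf, 2.53 for Fabp7, 2.42 for Csf2rb and 1.69 for Gpx1, and at 90 days they differed by 0.09 to 0.68. The choice by likeness to Cdkn1a used these same arrays, so these values are a description. The 12 arrays are the same for all 6 genes, so likeness here includes whatever those arrays share.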

How the data were processed

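The values used here are the authors' deposited MAS5 intensities for 45101 probe sets of the Affymetrix Mouse 430 2.0 array, scaled between arrays. Probe-level files were not used here. MAS5 is named in the submitters' processing notes, and its version is not given in the sources used here. The labels name toluidine blue staining for the capture, whereas the study's methods name ALDH1L1 immunohistochemistry and PLIER summarisation.

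Intensities were used as log2(intensity + 7), where 7 is the 20th percentile of all values, and quantile normalized within each time-point (over all 12 arrays for age). The 4 groups were fitted together with limma 3.58.1 in R 4.3.3 (lmFit and eBayes, with 8 residual degrees of freedom), and p-values were adjusted by Benjamini-Hochberg over 26153 probe sets. Genes were named from the platform annotation, in which 34958 probe sets have 1 symbol, 932 several and 9211 none. Lists were described by 1 probe set a gene, the brightest, with counts and medians only. The members and lists were chosen with earlier results of these data known. Named were all members, of each list up to 4 genes with the smallest p at each age, given where the unadjusted p was under 0.05, and the 5 genes most like Cdkn1a. The scripts were tested on simulated data. Figures used matplotlib 3.10.9. Alternatives covered normalization, offset, filter, samples in the fit, replicate block, array weights, variance prior and leaving out each array.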

Additional observations from a re-analysis of the deposited data

Results flagged for a closer look

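Cdkn1a took opposite courses with age in the genotypes. On probe set 1424638_at every NTg array was lower and every SOD1 G93A array higher at 120 than at 90 days, and the SOD1 G93A effect was larger at 120 days by 2.91 on the log2 scale. The same order held on 1421679_a_at, with 3.35, a size that ranged from 2.15 to 4.06 over 22 alternatives, as late-stage NTg values lay near the offset. In limma's test of this difference both had an adjusted p of 0.192 over all probe sets, with unadjusted p of 1.64e-05 and 3.29e-05, so the difference was not called. In NTg mice 16.1% of tested probe sets had all late-stage arrays lower, and in SOD1 G93A mice 11.6% had all late-stage arrays higher.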

How the results depend on the processing

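At 120 days Cdkn1a (both probe sets), Gadd45a and Gadd45g kept direction and call in all 23 alternatives, and Gadd45b in 18. Probe sets passing numbered 36 at 90 days, 1940 at 120 days, 0 for the difference between the stages, and 937 (NTg) and 1806 (SOD1 G93A) for age, with 12 called list genes at 120 days and 1 at 90 days. Median centring gave 3482 at 120 days (664 higher, 2818 lower), 5057 for age in SOD1 G93A mice and 19 list genes, and put Cdkn1b 1434045_at at -0.33. It moved the median difference of all probe sets at 120 days from -0.07 to -0.33 and the share of calls that were higher from 48.5% to 19.1%. For age that share was 31.5% in NTg and 44.5% in SOD1 G93A mice, against 14.7% and 11.2% with median centring and 42.7% and 64.7% with values as deposited. An offset of 34 gave 67 at 90 days, 2936 at 120 days, 3 for the difference and 20 list genes. No filter gave 22, 1248, 382 for age in NTg and 7 list genes, and a filter at the 75th percentile 19 list genes. Fitting each time-point alone gave 13, 756, and 0 and 7 list genes at 90 and 120 days. Array weights gave 131 at 90 days, 1 member (Gadd45g) and 2 list genes there, 22 list genes at 120 days, and 0.10 for Mdm2 1423605_a_at. A trended, robust prior gave 55 at 90 days, 20 for the difference and 19 list genes. The cause of these moves was not tested.

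Leaving out 1 array gave 12 to 56 calls at 90 days, 467 to 2382 at 120 days, 0 to 11 for the difference, 146 to 1953 and 568 to 2176 for age in NTg and SOD1 G93A mice, 1 to 2 and 6 to 17 list genes at 90 and 120 days, and 3 to 4 members at 120 days. The 120-day count was 1107 without SOD1 G93A mouse 3 and 1042, 467 and 593 without NTg mouse 1, 2 or 3. Differences that changed sign ranged, at 90 days, from -0.30 to 0.070 (Cdkn1a 1424638_at), -0.48 to 0.81 (Cdkn1b 1419497_at), -0.71 to 0.25 (Gadd45b 1450971_at) and -0.40 to 0.13 (Ccng1 1450017_at). At 120 days they ranged from -0.23 to 0.41 (Cdkn1b 1434045_at), -0.26 to 0.80 (Cdkn1b 1419497_at), -0.77 to 0.32 (Mdm2 1423605_a_at) and -0.042 to 0.27 (Ccng1 1450017_at), none of them called.

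Replicate numbers were shared by the groups but name no litter or day, so the mice were not treated as pairs. Deviations of same-numbered arrays correlated at -0.28 to 0.28 (90 days) and -0.07 to 0.03 (120 days). Differently numbered arrays correlated at -0.36 to 0.46 at 90 days. With 3 mice a group these correlations cannot decide whether mice were paired. The replicate block gave 17 calls at 90 days and 1063 at 120 days, and Mdm2 1427718_a_at then passed (adjusted p = 0.0349). Depth is unknown for arrays, and probe sets near the offset, such as Pmaip1, have little precision.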
